A study of Homo sapiens with 6 samples.

Results

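The annexins are a family of proteins that bind negatively charged phospholipids of membranes when calcium rises. They share a folded core that carries the calcium sites, and they differ in the head at the amino end, through which each member meets its own partners. They are known for the repair of torn plasma membranes and, in epithelial cells, for the sorting of vesicles to the apical surface, and ANXA2 also for gathering plasminogen at the cell surface. The genes described here were taken by symbol, as ANXA1 to ANXA9 and ANXA11. The rule uses no measured value, although it was set with earlier results of these data known. All 10 genes were listed among 26899 genes, and all 10 passed the filter on low counts that left 15299 genes for testing.

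The cells were HK-2, an established human proximal tubule line transformed with a papillomavirus, grown in serum and transfected with plasmid by lipid. Of the 6 polyadenylated RNA libraries, 3 were labelled ANXA2 knockdown and 3 control. The titles name the controls WT and the descriptions name them shCtrl, so the presence of a control hairpin is not settled, and the labels do not say whether replicates were separate cultures. P-values therefore measure the spread between these libraries, which may be technical. Libraries held 24231267 to 34561675 counted reads. Control replicate 1 stood apart on the first principal component (38.5% of the variance), with a score of -61.8 against -13.7 to 26.4 for the other libraries. On the second component (25.9%), libraries labelled knockdown scored 6.15 to 41.3, highest in knockdown replicate 3, and those labelled control -37 to -2.25. That split by label was not tested. Epithelial and renal markers were present, among them KRT8 at 1099 ± 218 CPM and PAX8 at 477.5 ± 117 CPM (SD, n = 3 libraries labelled control), whereas CDH1, at 0.101 ± 0.0524 CPM in the same libraries, was nearly silent. Of the markers of the differentiated proximal tubule, GGT1 was abundant (229.6 ± 10 CPM), but LRP2 and AQP1 were at or near 0. The listed leukocyte and endothelial markers summed to at most 4.22 and 0.394 CPM in any library, and those of fibroblasts to 29.4 to 37.1 CPM. CPM here stands for reads scaled to the reads of tested genes in the library after TMM scaling.

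The sequences of the members decide which of them can be counted apart. For 8 of the 10 genes no window of 100 bases of the main transcript in GENCODE release 44 recurred in a transcript of another gene. ANXA2 shared 19.7% of its windows, most of them with the processed pseudogene ANXA2P2. ANXA8 shared 69% of its windows, most of them with the copy ANXA8L1 on the same chromosome. The coding sequences of that pair differ at 5 of 981 aligned bases (99.5% identity), whereas the next closest pair among the members, ANXA4 and ANXA5, reaches 61%. The stretch from base 501 to base 530 of the coding sequence, counted from the A of the start codon, is printed because it holds the most differences of any 30 bases, with the differing bases in capitals.

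ANXA8: ggatgatgtgagcagctttgtggacccAgG

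ANXA8L1: ggatgatgtgagcagctttgtggacccGgC

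Reads that fall wholly within shared windows fit both copies equally well, and the sources used here do not give how such reads were counted. Values of ANXA8 are therefore uncertain. For ANXA2 fewer windows are shared, and ANXA2P2 was given only 3 to 14 reads per library. Whether shared reads of ANXA2 were left out of its counts is not known.

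The start regions of the members also differ. RefSeq promoters (GRCh38.p14, from 250 bases before to 50 after the start) were found for 9 of the 10 members, ANXA8 being the exception. The letters TATAAA, searched on both strands, occur in 11.5% of the 35116 promoters of the table. Among the members they occur in promoters of ANXA1 and ANXA2 and in 1 of the 3 promoters of ANXA11. The bases from 40 to 11 before the start are shown for the most abundant members, ANXA2 and ANXA5, and for ANXA1, with any TATAAA in capitals.

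ANXA2, minus strand, chr15:60397997-60398026: tgtggcgggTATAAAagccccacccaggcc

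ANXA5, minus strand, chr4:121696991-121697020: gggccggggtggggccgctggcgtttccgt

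ANXA1, plus strand, chr9:73151825-73151854: ttaaaatccTATAAAatcagaagcccaagt

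Around that motif the promoters are unlike. The ANXA2 promoter holds 76% G and C and 32 CpG dinucleotides and the ANXA1 promoter 37.7% and 0, against a median of 58.7% and 14 over all promoters. The ANXA5 promoter holds 76.3% G and C and 36 CpG dinucleotides. These matches describe letters in a window and were not tested as sites of binding.

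In order to rank the paralogues in HK-2, the deposited FPKM values were used, since they are scaled for length and so allow genes to be compared. ANXA2, which pairs with S100A10 at the plasma membrane, was the highest member in each of the 6 libraries. Its level was 742.65 to 840.92 FPKM, which placed it between position 72 and position 77 among 26803 genes. ANXA5, the phosphatidylserine-binding annexin used as a probe of dying cells, came next in each library, at 359.08 to 453.46 FPKM. The FPKM of ANXA2 exceeded that of ANXA5 by 1.68 to 2.15 times. The ranges of these levels did not overlap with each other or with any lower member.

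A group of 6 genes followed at levels that lay close together. It was led by ANXA3, at 61.47 ± 8.21 FPKM (SD, n = 6 libraries), and by ANXA7, the granule-aggregating synexin, at 56.46 ± 3.19 FPKM. Their ranges overlapped, and ANXA3 was above ANXA7 in 5 of 6 libraries. ANXA4, abundant in many epithelia, reached 44.15 ± 4.58 FPKM and ANXA6, which carries an extra copy of the core, 42.26 ± 3.75 FPKM. By FPKM, ANXA4 was above ANXA6 in all 3 libraries labelled knockdown and below it in all 3 labelled control. The point at which the order switches depends on the lengths used. A fixed length, however, scales the ratio of ANXA4 to ANXA6 alike in all libraries. That ratio was therefore higher in each library labelled knockdown than in any labelled control, in CPM as in FPKM. In CPM, with no length scaling, ANXA4 was above ANXA6 only in knockdown replicate 2 (116.7 against 110.6 CPM). The FPKM ranges of ANXA4 and ANXA6 over the 6 libraries overlapped. Neither the change of order nor that of the ratio between groups was tested. The lowest of the group were ANXA1, the glucocorticoid-regulated ligand of formyl peptide receptors, at 36.65 ± 5.22 FPKM, and ANXA11, a long-headed member that binds PDCD6 and S100A6, at 35.8 ± 1.62 FPKM. ANXA1 was above ANXA11 in 3 of 6 libraries.

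The remaining members were near silence. ANXA9, whose core is atypical in its calcium sites, had 0.16 to 0.73 FPKM, so that ANXA11 stood 83.3 times above it. ANXA8 had 0 to 0.1 FPKM. Of the 9 steps between neighbours in the order of levels, 5 separated ranges that did not overlap.

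**Figure D1:**
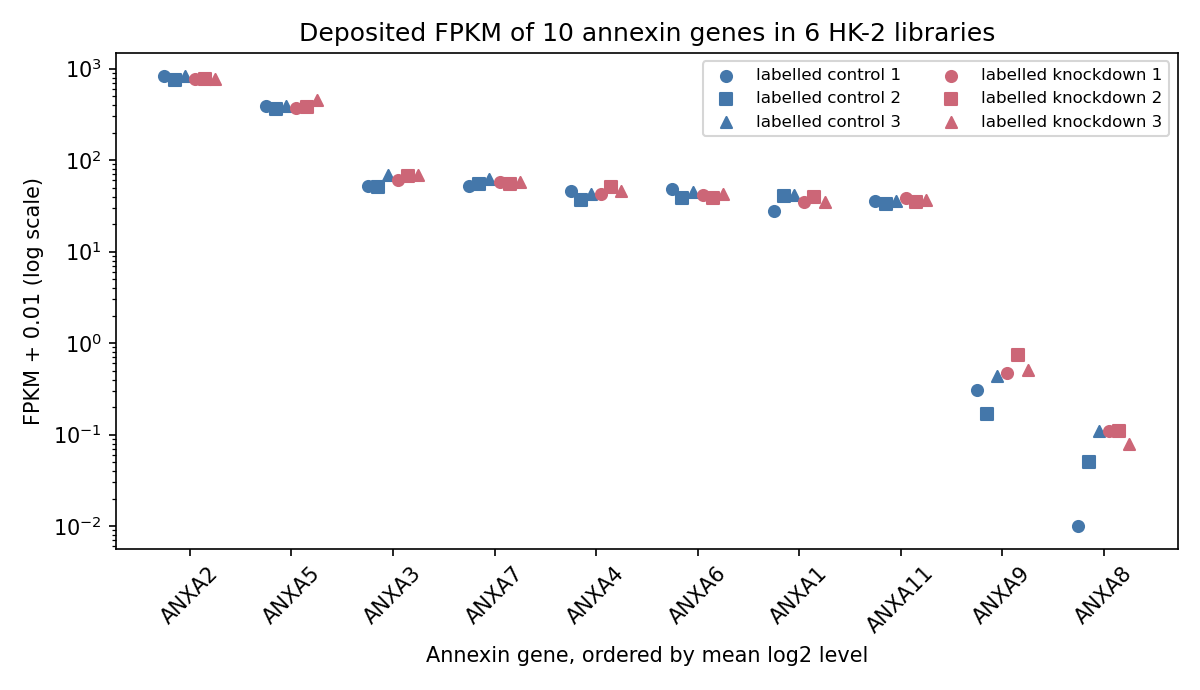
Deposited FPKM of each annexin gene in each library, with 0.01 added for the log axis. Blue points are libraries labelled control and red points libraries labelled knockdown, with the shape giving the replicate number. ANXA2 and ANXA5 stand above 6 members between 27.95 and 69.13 FPKM, and ANXA9 and ANXA8 lie below 1 FPKM in all 6 libraries.

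The order depends on the length assigned to each gene. If the divisor was the counted reads of the library, the FPKM values imply a length of 1992 bases for ANXA2 and 7644 for ANXA11, against main transcripts of 1554 and 6734 bases in GENCODE. For ANXA1 the implied length was 2511 against 1401 bases, whereas for ANXA4 it was shorter than the main transcript, at 2285 against 2651 bases. Dividing reads by the union of all annotated exons, which spans 11574 bases for ANXA2 and 2925 for ANXA5, put ANXA5 above ANXA2 and moved 6 of the 10 places. Dividing by the main transcript, an alternative chosen after the data were seen, kept ANXA2 and ANXA5 at the top and moved 4 places. ANXA1 then stood above ANXA7, and ANXA4 below ANXA11. ANXA9 and ANXA8 were lowest under each of the 4 scalings.

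**Figure D2:**
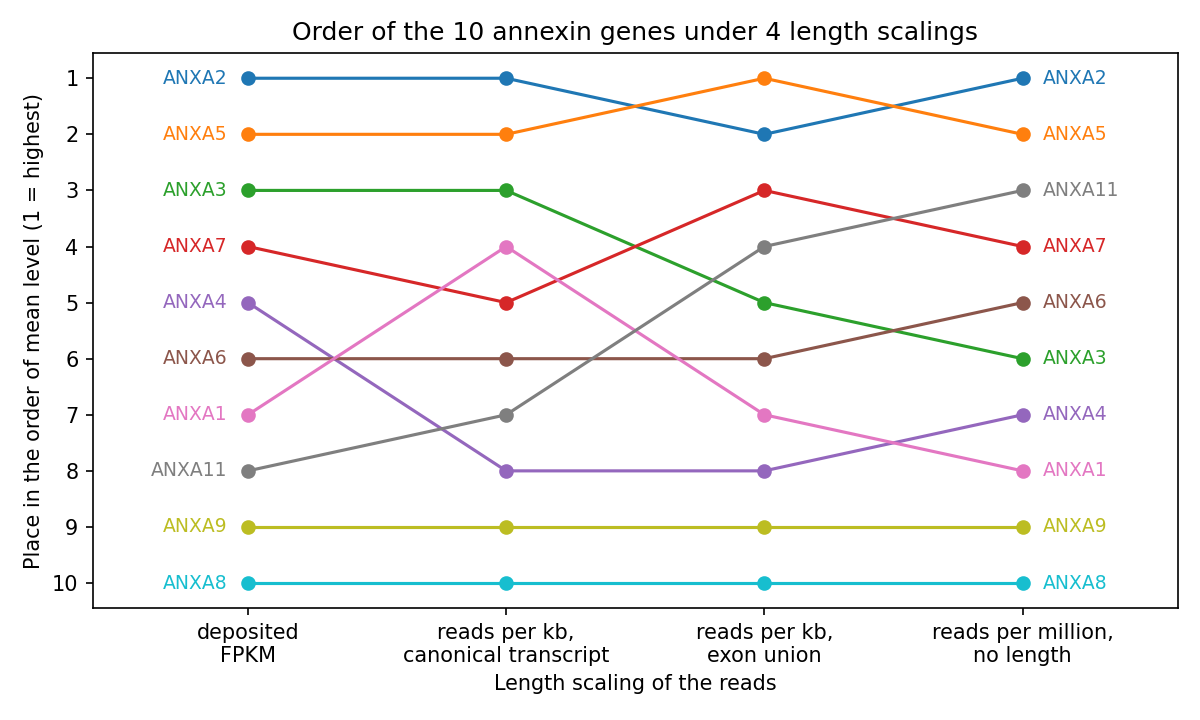
Place of each annexin gene in the order of mean level over 6 libraries (vertical axis, 1 is highest) under 4 ways of scaling reads for length (horizontal axis). Lines join the same gene. ANXA9 and ANXA8 keep places 9 and 10, ANXA2 and ANXA5 exchange places under the exon union, and the 6 genes of intermediate level change order.

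The annexin transcript pool was thus carried mainly by a pair of genes. Over the 6 libraries ANXA2 made up 54.01 ± 1.76% and ANXA5 26.91 ± 1.63% of the summed FPKM of the members (SD, n = 6), and the 6 genes of intermediate level together 19.04 ± 0.755%. Scaled by the exon union, the share of ANXA2 was 24.9%, with ANXA5 ahead of it.

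To check the labels, the targeted gene was examined first between groups. ANXA2 (ENSG00000182718.16, chromosome 15 from 60347134 to 60402883, minus strand, GRCh38) had 1538, 1561 and 1519 CPM in the libraries labelled knockdown and 1658, 1461 and 1675 CPM in those labelled control. The values overlapped, since control replicate 2 was the lowest library of all. By edgeR the estimate on the log2 scale was -0.05 (SE 0.075, adjusted p 0.848 after Benjamini-Hochberg correction). An exact permutation of the library labels, two-sided, gave p = 0.4, and no p under 0.1 can be reached with 3 libraries in each group. The estimate was -0.11 (edgeR adjusted p 0.92) when control replicate 2 was left out, and all 3 libraries labelled knockdown lay below the 2 remaining controls. It was -0.02 when control replicate 3 was left out. In the full comparison the 95% interval ran from -14.33% to 8.286%. A fall of the ANXA2 transcript was therefore not detected, and "labelled knockdown" is used throughout, since no direction below can be tied to a measured loss of ANXA2 RNA.

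The other members were then compared to ask whether any rose in the libraries labelled knockdown. By edgeR, 0 of 10 members passed an adjusted p of 0.05, as did 0% of all 15299 genes tested, and the lowest adjusted p of a member was 0.634. With no adjustment, again 0 of 10 members had a p under 0.05, against 8.18% of all tested genes, and DESeq2, which called 31 genes in all, and limma-voom called 0 members. Estimates were above 0 for 7 members and below 0 for 3 (8 and 2 under upper-quartile scaling, where ANXA1 changed sign). Their median log2 fold change was 0.09, beside -0.0065 over all tested genes. Among the members, 1 was higher without overlap in the libraries labelled knockdown, against 7.94% of tested genes, and 0 were lower without overlap, against 7.7%.

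**Figure D3:**
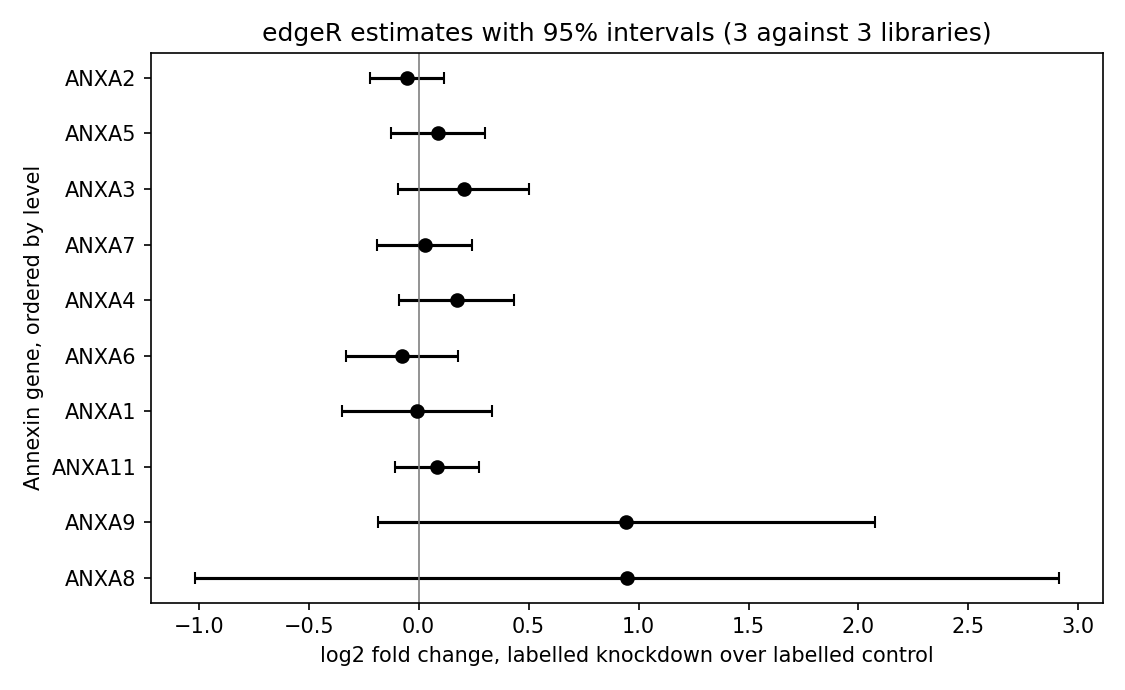
edgeR log2 fold change of each annexin gene, libraries labelled knockdown over libraries labelled control (horizontal axis), with genes in order of level. Points are estimates and bars 95% intervals from 3 against 3 libraries. All 10 intervals span 0, narrowly for ANXA2 and ANXA11 and widely for ANXA9 and ANXA8.

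ANXA5 (ENSG00000164111.14, chromosome 4 from 121667946 to 121696995, minus strand) had 701.5, 714.7 and 843.7 CPM in the libraries labelled knockdown and 737.2, 659.8 and 727.5 CPM in those labelled control. Knockdown replicate 3 alone was high, and the other libraries intermixed. The log2 fold change was 0.09 (SE 0.0946, edgeR adjusted p 0.798). Without knockdown replicate 3 the estimate was 0.0017, and leaving out control replicate 2 gave 0.04.

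ANXA1 (ENSG00000135046.13, chromosome 9 from 73151865 to 73170393, plus strand) had 89.08, 99.76 and 87 CPM in the libraries labelled knockdown and 70.63, 101.6 and 105.4 CPM in those labelled control. Control replicate 1, the library that stood apart, was the lowest. The sign of the difference was not settled, with a log2 fold change of -0.0098 (SE 0.151, edgeR adjusted p 0.988) that moved to -0.17 without control replicate 1 and to 0.09 without control replicate 3.

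ANXA3 (ENSG00000138772.12, chromosome 4 from 78551747 to 78610451, plus strand) gave the highest estimate among the 8 abundant members. It had 117.7, 128.7 and 130 CPM in the libraries labelled knockdown and 100.8, 94.5 and 131.3 CPM in those labelled control. Control replicate 3 was the highest library of all, so the groups overlapped. The log2 fold change was 0.20 (SE 0.132, edgeR adjusted p 0.683), 0.36 when control replicate 3 was left out and 0.11 when control replicate 2 was.

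For the other abundant members the groups overlapped. ANXA4 had 99.49 to 116.7 CPM against 82.69 to 104.5 CPM, with a log2 fold change of 0.17 (SE 0.116, edgeR adjusted p 0.689). Its estimate was 0.08 when control replicate 2 was left out and 0.11 when knockdown replicate 2 was. For ANXA6 the values were 110.6 to 122.2 CPM against 107.7 to 137.9 CPM, with -0.08 (SE 0.112, adjusted p 0.86). ANXA7 gave 144.8 to 150.1 CPM against 136.8 to 159.8 CPM and 0.03 (SE 0.0955, adjusted p 0.95), and ANXA11 269.5 to 295 CPM against 252.8 to 276.3 CPM and 0.08 (SE 0.0848, adjusted p 0.794), or 0.047 with control replicate 2 omitted and 0.052 with knockdown replicate 1 omitted. The estimates for ANXA3, ANXA4, ANXA11 and ANXA9 were larger than their SD of log2 CPM within groups (0.186, 0.149, 0.0664 and 0.512), although none passed the test. That SD is a spread of single libraries, so the comparison is not a test of group means. The sign of ANXA6 and of ANXA7 changed when control replicate 1 was left out (0.0079 and -0.014).

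The intervals limit the size of rise that these libraries leave possible. Among the 7 abundant members other than ANXA2, the upper ends of the 95% intervals lay between a rise of 13.1% for ANXA6 and one of 41.55% for ANXA3. The upper end was 23.31% for ANXA5, the member closest in level to ANXA2. A larger rise of these transcripts lay outside the interval, although misses of the threshold do not show that levels were equal.

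ANXA9 (ENSG00000143412.9, chromosome 1 from 150982249 to 150995634, plus strand) was the member with separate groups. Its reads numbered 31, 47 and 28 under the knockdown label and 14, 10 and 26 under the control label, that is 0.9084, 1.423 and 0.9698 CPM against 0.5739, 0.3059 and 0.8347 CPM. All 3 libraries labelled knockdown were above all 3 labelled control, by a narrow gap between knockdown replicate 1 and control replicate 3. The log2 fold change was 0.94 (SE 0.502, edgeR unadjusted p 0.0917, adjusted p 0.634), and exact permutation gave 0.1, the smallest p possible. Leaving out control replicate 2 gave 0.64, and leaving out control replicate 3 gave 1.33. The 95% interval, from -12.12% to 321.1%, is wide at this depth.

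ANXA8 (ENSG00000265190.6, chromosome 10 from 47460162 to 47484158, minus strand) had 14, 14 and 9 reads under the knockdown label and 0, 5 and 13 under the control label. The copy ANXA8L1 held 8, 10 and 5 reads and 20, 5 and 9 reads. Counted together, the pair had 0.645, 0.727 and 0.485 CPM in the libraries labelled knockdown and 0.82, 0.306 and 0.706 CPM in those labelled control, and the groups overlapped. Control replicate 1, with 0 reads of ANXA8, had the most reads of ANXA8L1. The estimate for ANXA8 alone was 0.95 (SE 0.872, edgeR adjusted p 0.763) and moved to 2.15 when control replicate 3 was left out and to 0.43 when control replicate 1 was. The related genes ANXA10 (1 to 15 reads), ANXA13 (0 to 8) and the pseudogene ANXA2P2 (3 to 14) did not pass the low-count filter. The symbols ANXA2P1 and ANXA2P3 were not found among the listed genes. ANXA2R, named as a receptor of annexin A2, had 2 to 53 reads and an edgeR adjusted p of 0.899.

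The make-up of the pool was compared within libraries, where scaling between libraries has no part. ANXA2 made up 54.01%, 53.79% and 50.72% of the summed annexin FPKM in the libraries labelled knockdown and 55.75%, 54.76% and 55.03% in those labelled control. The 3 libraries labelled knockdown were the lowest, by a narrow gap (54.01% against 54.76%), and knockdown replicate 3 stood below the rest. Among all tested genes, by CPM, 7.94% were higher and 7.7% lower without overlap between the same groups. That is a rate for single genes, and the matching rate for shares within a library was not computed. Group means were 52.84 ± 1.84% and 55.18 ± 0.515% (SD, n = 3). The ratio of ANXA2 to ANXA5 was 2.05, 2.04 and 1.68 against 2.1, 2.07 and 2.15. No test was run on these sums, because the members were chosen with earlier results known.

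**Figure D4:**
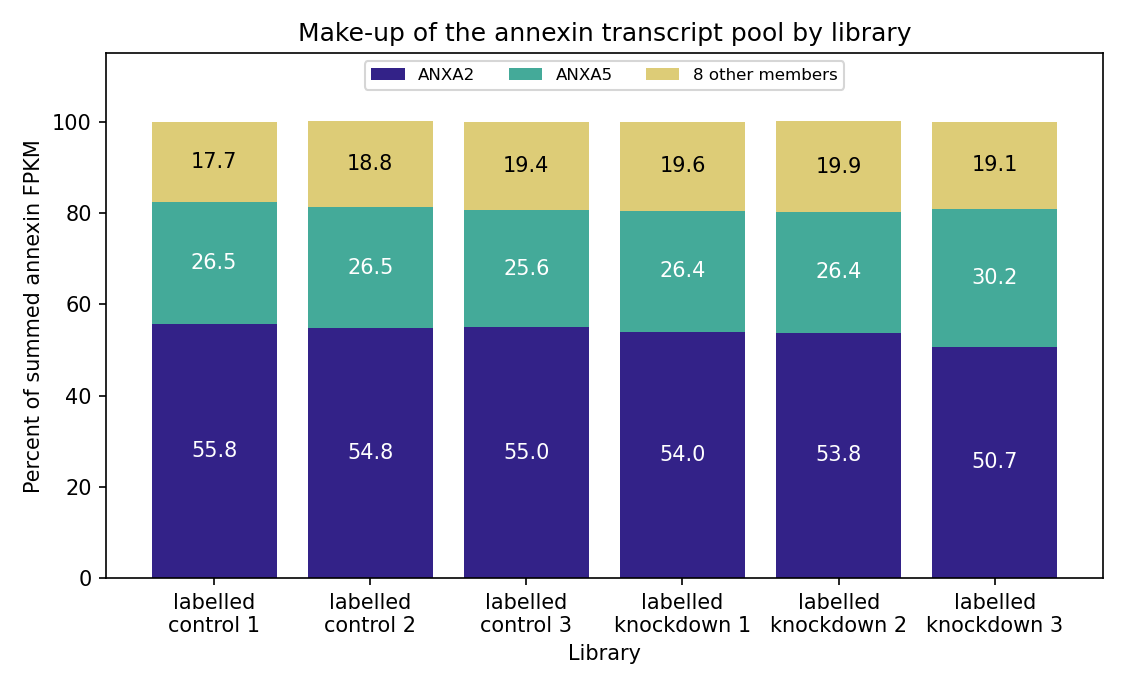
Percent of the summed annexin FPKM (vertical axis) carried by ANXA2, ANXA5 and the 8 other members in each library (horizontal axis, labelled group and replicate). Bars are single libraries. The ANXA2 part is 50.72% to 54.01% in the libraries labelled knockdown and 54.76% to 55.75% in those labelled control, and the ANXA5 part is highest in knockdown replicate 3 at 30.16%.

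In reads, the 9 members other than ANXA2 summed to 1575, 1586 and 1722 CPM in the libraries labelled knockdown and 1565, 1439 and 1621 CPM in those labelled control. Control replicate 3 exceeded knockdown replicates 1 and 2, so the groups overlapped. The means were 1628 ± 81.8 and 1542 ± 93.4 CPM (SD, n = 3), and the whole family summed to 3167 ± 66.2 and 3140 ± 211 CPM.

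The members differed in how steady they were. Within groups, the SD of log2 CPM was 0.0664 for ANXA11, 0.0792 for ANXA2 and 0.089 for ANXA7, against a median of 0.224 over all tested genes. ANXA1, at 0.237, was the most variable of the abundant members, and ANXA9 (0.512) and ANXA8 (1.04) rested on few reads. Within the family, the smallest root mean square difference from ANXA2 in centred log2 CPM over the 6 libraries was that of ANXA6, at 0.0775. ANXA7 (0.0853) and ANXA11 (0.0856) lay close behind. Because ANXA2 itself varied little, any steady gene scores low by this measure, so these values do not show a shared course. Outside the family the genes most like ANXA2 by that measure were ADD1, an adducin of the membrane skeleton (0.0199), UQCRC2, a core subunit of respiratory complex III (0.0218), and RNF4, a SUMO-targeted ubiquitin ligase (0.0225). Likeness over 6 libraries is a description, since all values share the libraries.

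Genes that work with annexins were examined as lists. Of 8 tested binding partners and receptors, 0 passed an adjusted p of 0.05 and 2 an unadjusted p of 0.05 (S100A6 and S100A11), against 8.18% of all tested genes. Estimates were above 0 for 6 of the 8, against 7495 of the 15299 genes tested. The median log2 fold change of the list was 0.14, beside -0.0065 over all tested genes. S100A10, the partner of ANXA2, had 969, 859.4 and 926 CPM in the libraries labelled knockdown and 942, 717.5 and 870 CPM in those labelled control, with overlap, at a log2 fold change of 0.12 (SE 0.107, edgeR adjusted p 0.748). S100A11, the partner of ANXA1, had 942.6, 890.7 and 926 CPM in the libraries labelled knockdown and 792.2, 790.5 and 870.3 CPM in those labelled control. These groups did not overlap, at a log2 fold change of 0.17 (SE 0.0753, edgeR unadjusted p 0.0499, adjusted p 0.608). Of the 8 tested genes of this list, 1 was higher and 0 lower without overlap, against 7.94% and 7.7% of all tested genes. S100A6, which binds ANXA11, had 1007, 1051 and 820.7 CPM against 873.5, 708.3 and 764.6 CPM, with overlap and an edgeR adjusted p of 0.605. The lower estimates were those of AHNAK, a large protein that binds the complex of ANXA2 and S100A10 (-0.20, SE 0.225, adjusted p 0.809, named after its value was seen), and of PDCD6. The largest estimate of the list was that of S100A4, at 0.50 (SE 0.341, adjusted p 0.69), from 6.196 ± 2.36 and 4.401 ± 1.65 CPM. PDCD6, the calcium sensor bound by ANXA7 and ANXA11, and SRI, the sorcin that binds ANXA7, gave estimates of -0.03 and 0.07 (adjusted p 0.944 and 0.882).

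Plasma membrane repair, in which annexins act beside dysferlin and the ESCRT machinery, was covered by 18 tested genes. By edgeR, 0 passed an adjusted p of 0.05 and 3 an unadjusted p of 0.05, namely SYT7 and, named after their values were seen, EHD2 and CHMP2A, against 8.18% of all tested genes. Estimates were above 0 for 16 of the 18 (15 with scaling by library size alone), beside 7495 of all 15299 genes, and the median log2 fold change was 0.17. SYT7, a calcium sensor of lysosome exocytosis, had 40, 45 and 33 reads under the knockdown label and 13, 18 and 18 under the control label, without overlap, at a log2 fold change of 1.14 (SE 0.404, edgeR adjusted p 0.599). SMPD1, the acid sphingomyelinase, had 24.62, 19.62 and 23.72 CPM against 22.75, 11.2 and 13.77 CPM, with overlap through control replicate 1, at 0.51 (SE 0.242, adjusted p 0.615). VPS4B, an ATPase that takes ESCRT filaments apart, had 24.97, 26.41 and 26.32 CPM in the libraries labelled knockdown and 33.04, 34.75 and 26.52 CPM in those labelled control. It was lower without overlap, at -0.28 (SE 0.131, edgeR adjusted p 0.615), and was named after its values were seen. Of the 18 genes, 3 were higher and 1 lower without overlap, against 7.94% and 7.7% of all tested genes.

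ANXA1 is known to restrain phospholipase A2. Of 9 tested genes of phospholipase A2 and of prostaglandin and leukotriene synthesis, 0 passed an adjusted p of 0.05 by edgeR. An unadjusted p of 0.05 was passed by 3, against 8.18% of all tested genes. They were ALOX5 and, named after their values were seen, PTGES2 (estimate 0.33) and PTGES3 (-0.33). Of the 9 genes, 3 were higher and 2 lower without overlap, against 7.94% and 7.7% of all tested genes. Over all 15299 tested genes, 7495 estimates were above 0. Those of the list were above 0 for 5 and below 0 for 4 (4 and 5 with scaling by library size alone), with a median log2 fold change of 0.02. The largest were those of ALOX5, the enzyme that opens leukotriene synthesis, at 1.02 (SE 0.42, edgeR adjusted p 0.605; 1.79 ± 0.747 and 0.8813 ± 0.0595 CPM), and of PLA2G4A, the cytosolic phospholipase A2, at -0.59 (SE 0.425, adjusted p 0.71; 0.7154 ± 0.183 and 1.075 ± 0.161 CPM; SD, n = 3).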

How the data were processed

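Raw read counts per gene for 6 HK-2 libraries were deposited by the authors, together with FPKM values (fragments scaled to gene length and library depth) rounded to 2 decimals. The submitters' processing notes name GRCh38, bcl2fastq, TopHat2 and edgeR. The sources used here do not give the counting program, the annotation or the use of strand. Counts were tested across all genes with the edgeR 4.0.16 quasi-likelihood test in R 4.3.3 (TMM scaling, default low-count filter with a minimum count of 10, no covariates, two-sided, Benjamini-Hochberg adjustment over 15299 genes). Standard errors and 95% intervals were derived from the F statistic. Single genes were also compared by exact permutation over libraries. Alternatives were other scalings, no filter, DESeq2 1.42.0, limma 3.58.1 (voom, and trend on FPKM with a pseudocount of 1 or 0.1), a replicate block, omission of each library and other gene lengths. The order of levels used mean log2(FPKM + 0.01). Scripts were tested on simulated data. Libraries of 1 group differed far beyond sampling noise (chi-square per degree of freedom 9.64 to 49.7). Each was counted as 1 sample, although that spread does not show whether replicates were separate cultures. Counted reads per library were 24231267 to 34561675. The intervals cover the spread between libraries as well as counting error, and were widest for ANXA8 and ANXA9, the members with the fewest reads. Coordinates and transcripts are those of GENCODE release 44, and promoters those of RefSeq. Named genes were the 10 members, 7 relatives, 5 partners, the 2 largest estimates of each of 3 lists and the 3 genes most like ANXA2. KRT8, PAX8, CDH1, GGT1, LRP2 and AQP1 were named from the marker lists, and EHD2, CHMP2A, VPS4B, PTGES2, PTGES3 and AHNAK from the other lists, after their values were seen. Members and lists were chosen with earlier results of these data known.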

Additional observations from a re-analysis of the deposited data

How the results depend on the processing

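All 15 alternatives to the edgeR analysis called 0 members at an adjusted p of 0.05, and of 150 estimates for the members 140 kept their direction and 10 changed sign. The changes all concerned estimates close to 0. ANXA1 moved from -0.0098 to 0.0079 with upper-quartile scaling, 0.00076 with limma-voom and 0.00995 with the replicate block, and it spanned -0.169 to 0.0946 when 1 library was left out, with values above 0 without control replicate 2 (0.0639), control replicate 3 (0.0946), knockdown replicate 1 (0.0138) and knockdown replicate 3 (0.0299). ANXA6 spanned -0.166 to 0.00792 and ANXA7 -0.0138 to 0.102 when 1 library was left out: ANXA6 moved to 0.00792 without control replicate 1, and ANXA7 to -0.0138 without control replicate 1 and to -0.00118 without control replicate 2. Adjusted p-values of the members spanned 0.439 to 0.999. The ANXA2 estimate kept its sign, from -0.113 (control replicate 2 omitted) to -0.0175 (control replicate 3 omitted), and was -0.0515 (adjusted p 0.876) with the replicate number as a block. Correlations of same-numbered deviations were -0.0616, 0.118 and -0.203, beside -0.226 to 0.217 for differently numbered libraries. These values do not settle whether the numbers pair the libraries. The block called 0 genes, as the fit without it did. Genes called overall were 165 without the low-count filter, 31 with DESeq2, 4 without knockdown replicate 2 and 0 otherwise, and the cause was not tested.

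The log2 ratio of the summed other members, 0.0783, was 0.0323 without control replicate 2, 0.0377 without knockdown replicate 3 and 0.117 without control replicate 3, and stayed above 0 under all 10 alternatives. The share of ANXA2 in the pool, 54% of FPKM, became 24.9% per kilobase of exon union, 56.6% per kilobase of the main transcript (chosen after seeing the data) and 49.8% with no length scaling, which follows from the lengths used. Neighbours with separate ranges numbered 4 to 7 under the alternatives, against 5.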
